A study of Arabidopsis thaliana with 12 samples.

Results

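The change from explant to callus was compared between petal and root in Arabidopsis thaliana of the Ler (Landsberg erecta) ecotype. The members are the 4 arrays of petal callus and the 4 arrays of root callus, 8 of the 12 arrays of the series, chosen by their titles. The other 4 arrays carry cotyledon callus. On each array, callus RNA after 10 days on a callus-inducing medium rich in auxin was hybridised together with RNA of the same organ at day 0, excised and not cultured. No genotype other than Ler, no mutant and no transgene enters the comparison, and the day-0 explant is the baseline within each array. Callus RNA carried Cy5 on replicates 1 and 3 and Cy3 on replicates 2 and 4 of both organs. A value is a log2 ratio of callus over explant, called a response below, and a difference is the petal response minus the root response. The labels do not state the direction of the ratios. Callus over explant was taken as likely because, read this way, most photosynthesis genes fall and most division genes rise. The direction of those responses is therefore not a separate result. All signs would turn together if the ratios ran the other way round.

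Callus is a mass of dividing cells that forms from differentiated tissue on a medium with auxin. In Arabidopsis it is known to arise from cells next to the vascular strands that take up the course of lateral root formation, in which auxin acts through ARF and IAA proteins on LBD transcription factors. A root explant already holds cells that can start lateral roots, whereas a petal is a floral organ whose cells have stopped dividing, and the study asked whether callus of such organs follows the root pathway. Ratios of about 100-fold or more in either direction are limits and were treated as missing. A gene was tested where at least 3 arrays of petal and 3 arrays of root measured it, which held for 9783 of 13509 genes with a named probe, and 1197 of the tested genes have a symbol.

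Petal and root differed over much of the transcriptome. At an adjusted p under 0.05 in limma, 5851 genes differed, 59.8% of those tested, with 3249 higher (33.2%) and 2602 lower (26.6%) in petal than in root. The absolute difference was over 1 in 3515 of them and over 2 in 1378. In 4788 of the called genes, or 81.8%, no petal value lay within the range of the root values, against 50.4% of all tested genes. The response was wider in petal, with an SD over genes of 1.68 for petal and 1.00 for root, and in 4841 called genes (82.7%) the petal response was the larger in size. These are ratios of whole tissues: a change in the share of a cell type and a change of RNA per cell cannot be told apart, nor can a difference that lies in the calli be told from one that lies in the explants. No level of either tissue was available, so the labelled organs could be checked only through changes of their markers.

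The share at a limit differed between arrays, from 2.00% to 28.2% in petal and from 7.40% to 22.4% in root. Over the 8973 genes measured on all 12 arrays, petal arrays correlated with each other at r from 0.85 to 0.92 and root arrays from 0.79 to 0.85, and a petal with a root array at 0.39 to 0.57 (Pearson, across genes, which are not independent). The dye moved the difference in 13 genes (0.133%). Where the arrays are centred sets the balance of the calls: 55.5% of called genes were higher in petal with the ratios as deposited, and 77.4% (3932 higher and 1146 lower) when each array was centred on the median over its full set of values, limits included (full centring below), which moved the median difference by 0.50. With arrays scaled to the same spread, 4688 genes were called. Of the 5851 genes called, 3578 were then called the same way and 610 had the opposite sign, 87 of them past the threshold. The 4 arrays an organ limit the precision of every value.

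The called differences fell into classes by the direction of both responses. Callus was higher than the explant in 4401 genes in petal (45%) and in 3862 in root (39.5%), and lower in 3264 genes in petal (33.4%) and in 2255 in root (23.1%). Among genes higher in both calli, 1632 had the higher response in petal, 88 had the lower response in petal and 1187 were not called different. Among genes lower in both calli, 700 were lower in petal, 92 were higher in petal and 684 were not called different. A further 862 genes were called up in petal and not in root, and 1024 down in petal and not in root, each with a called difference. In 403 genes (4.12%) petal callus was higher and root callus lower than its explant, and in 450 genes (4.6%) petal callus was lower and root callus higher. These opposite groups depend on the centring. The 450 became 116 with full centring and 299 when centred on tested probes, and the 403 became 409 and 463.

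**Figure D1:**
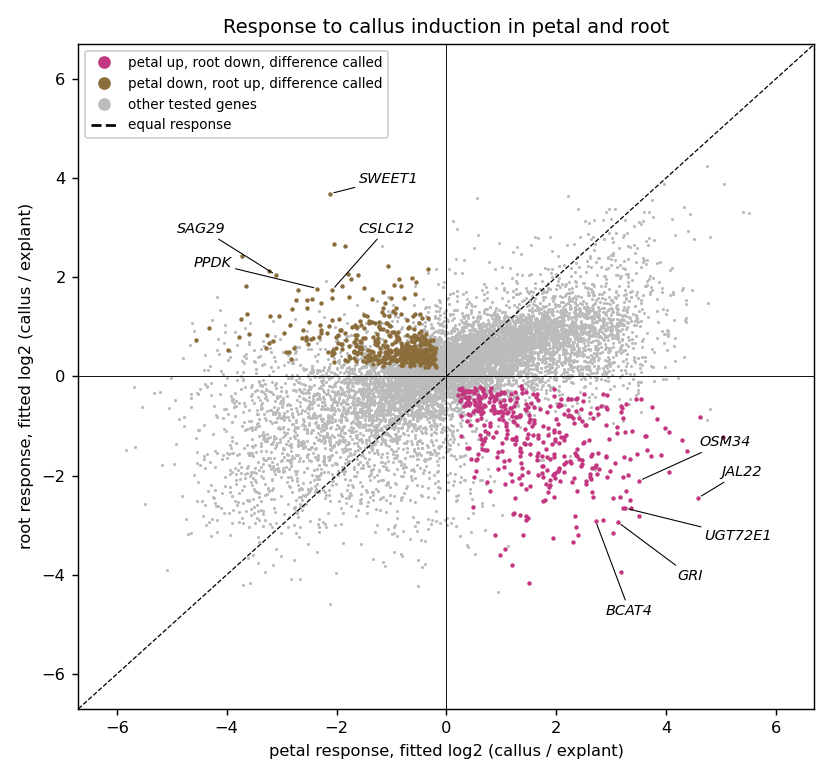
Fitted petal response (x axis, log2 of callus over explant) against fitted root response (y axis, same unit) for the 9783 tested genes, with the 403 genes up in petal and down in root and the 450 genes down in petal and up in root in colour and the line of equal response dashed. The cloud is wider along the petal axis. SWEET1 stands at a root response of 3.68 and JAL22 at a petal response of 4.59, in opposite corners.

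Among the genes named by rule, those with the largest differences were lectin, defence and conjugating-enzyme genes on one side and sugar transporters on the other. JAL22 (AT2G39310), a jacalin-related lectin gene, had the highest difference of the genes named by rule. Its response was 5.36, 4.51, 5.0 and 3.50 on petal replicates 1 to 4, against -2.30, -1.91, -2.37 and -3.21 on root replicates 1 to 4. All petal arrays lay above all root arrays and on the other side of 0. The difference was 7.04 ± 0.45 (SE), 131-fold, with an adjusted p of 1.33e-06. JAL31 (AT3G16430), of the same family, had responses of 5.87, 4.01, 3.13 and 3.22 in petal, against -0.79, -1.65, -1.01 and -1.08 in root (difference 5.19, adjusted p = 1.6e-05). JAL34 (AT3G16460) had 3.81, 3.01, 3.98 and 3.11 in petal, against -1.71, -1.81, -1.39 and -1.33 in root (5.03, adjusted p = 6.5e-07). The lectins thus lay above 0 on every petal array and below 0 on every root array. Lectin genes of this family lie close together and resemble each other, so a probe may read more than 1 of them.

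Enzymes of oxidative and secondary metabolism were next. UGT72E1 (AT3G50740), a glucosyltransferase of phenylpropanoid aldehydes, had responses of 3.67, 2.96, 3.71 and 2.68 in petal, against -2.68, -3.02, -2.50 and -2.42 in root. Its difference was 5.91 ± 0.20 (adjusted p = 1.39e-07). GRI (AT1G53130), the source of a secreted peptide that acts in cell death upon reactive oxygen, had 3.32, 3.09, 3.16 and 2.92 in petal, against -2.65, -2.44, -3.17 and -3.51 in root (difference 6.06, adjusted p = 0.000231). Both genes had a narrow spread in both organs and no overlap. BCAT4 (AT3G19710), which starts the methionine chain elongation of glucosinolate synthesis, had 3.46, 1.71, 3.31 and 2.37 in petal, against -3.18, -2.31, -2.33 and -3.82 in root (5.63, adjusted p = 1.91e-06). OSM34 (AT4G11650), an osmotin-like defence protein gene, had 4.16, 3.87, 3.35 and 2.66 in petal, against -1.47, -1.73, -1.81 and -3.41 in root (5.61, adjusted p = 4.24e-06). GSTU22 (AT1G78340), a glutathione transferase gene of the tau class, differed by 5.25, with petal values of 2.84 to 3.92 and root values of -2.70 to -1.35. The last of the 10 highest genes with a symbol and values on all 8 arrays were MSRB9 (AT4G21850), a methionine sulfoxide reductase gene, at 4.71, and PUB22 (AT3G52450), a ubiquitin ligase gene that dampens pattern-triggered immunity, at 4.67. TRI (AT2G29330), a tropinone reductase gene, was up in petal and down in root with a difference of 4.42. For all 11 genes the difference stayed past the threshold under every alternative tried.

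At the other end stood SWEET1 (AT1G21460), a glucose transporter gene. Its response was -0.78, -2.98, -1.17 and -3.52 on petal replicates 1 to 4, against 3.70, 3.40, 3.73 and 3.90 on root replicates 1 to 4. The petal values were lower with callus in Cy3 than in Cy5, and all of them lay below 0 and below every root value. The difference was -5.80 ± 0.44 (adjusted p = 4e-06). SAG29 (AT5G13170), known also as SWEET15 and induced in senescence, had -2.32, -4.24, -1.49 and -4.38 in petal, against 2.60, 1.88, 2.70 and 1.01 in root (difference -5.15, adjusted p = 7.14e-06). SWEET14 (AT4G25010), a further member of this transporter family, had -4.10, -4.64, -3.03 and -2.74 in petal, against 1.57, 1.49, 1.78 and 0.20 in root (-4.89, adjusted p = 0.000223). All 3 transporters were thus lower than the explant on every petal array and higher on every root array.

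BPEp (AT1G59640), a bHLH factor gene that limits petal cell expansion, had responses of -3.66, -5.07, -2.07 and -4.95 in petal, against -0.02, 0.84, 0.26 and 0.52 in root. Its difference was -4.33, and the root response of 0.40 did not pass the test. Only the petal response passed also for EXPB5 (AT3G60570), a beta-expansin gene with a difference of -4.22 (petal -4.11, root 0.12), for PUP18 (AT1G57990), of the purine permease family, at -3.90 (petal -3.82, root 0.08), and for TBL45 (AT2G30010), of a family of wall polysaccharide acetylation, at -3.82 (petal -3.40, root 0.42). MGL (AT1G64660), a methionine gamma-lyase gene, had -3.09, -3.07, -2.36 and -3.64 in petal, against 1.02, 1.02, 1.89 and 0.93 in root (-4.25, adjusted p = 2.44e-06). PPDK (AT4G15530), pyruvate orthophosphate dikinase, which acts in nitrogen remobilisation from ageing leaves, had -1.79, -2.84, -1.98 and -2.79 in petal, against 2.29, 1.49, 1.68 and 1.62 in root (-4.12, adjusted p = 3.6e-07). Both enzyme genes changed in opposite directions in the 2 organs, with no overlap.

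**Figure D2:**
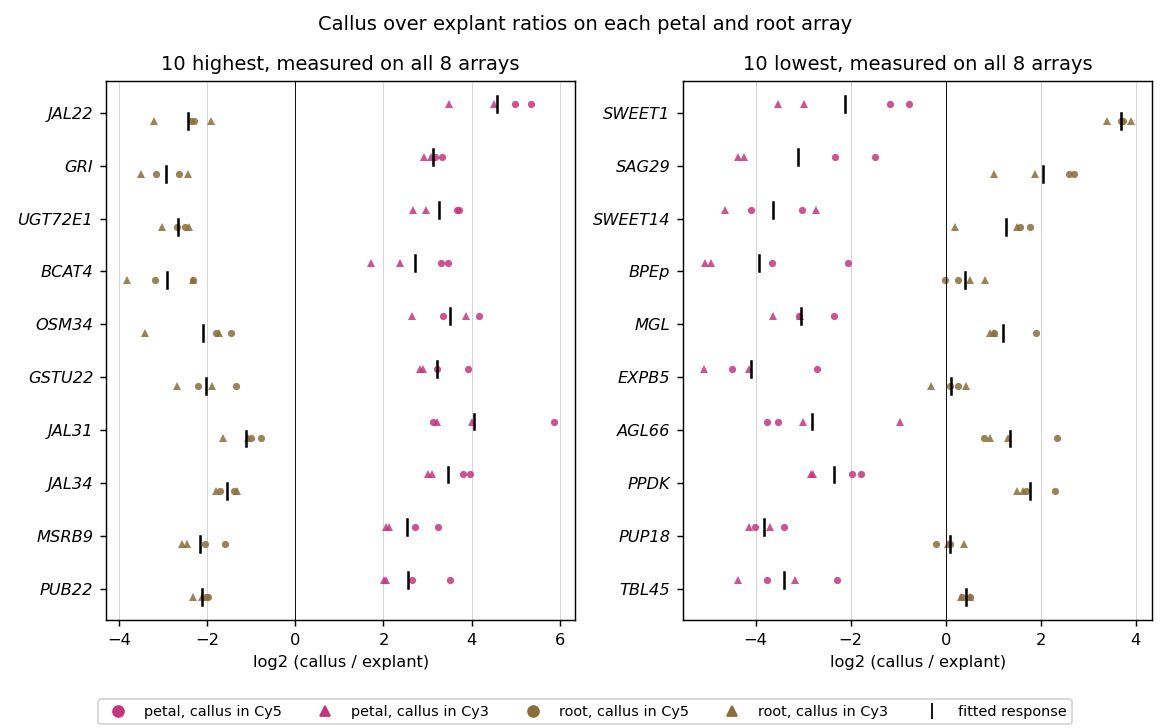
Log2 ratio of callus over explant (x axis) on each of the 4 petal arrays (upper points of a gene) and 4 root arrays (lower points) for the 10 highest (left panel, petal to the right of 0 and root to the left) and 10 lowest (right panel) differences among genes with a symbol, a called difference without overlap and a value on all 8 arrays, with circles for callus in Cy5, triangles for callus in Cy3 and black bars for the fitted response. Petal and root points do not overlap in any of these genes, as the rule that named them requires, and genes with a missing array, such as BGLU21 (4.87), RALFL25 (-4.98) and SWEET4 (-3.95), are not plotted.

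The cotyledon arrays, which share no RNA with the petal or root arrays, were set beside these groups. Of the 403 genes up in petal and down in root, 242 (60.05%) were up in cotyledon callus and 64 (15.9%) down. Of the 450 genes down in petal and up in root, 86 (19.1%) were up in cotyledon and 276 (61.3%) down. Over all tested genes the cotyledon shares were 40.3% up and 30.1% down, so cotyledon callus lay on the petal side in most of both groups. In the 1632 genes that were up in both calli and higher in petal, 90.3% were up in cotyledon, with median responses of 1.95 in petal, 1.24 in cotyledon and 0.81 in root. Single genes departed from this: the cotyledon response was -3.93 for BCAT4, 1.14 for SWEET1 and 2.34 for SAG29.

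**Figure D3:**
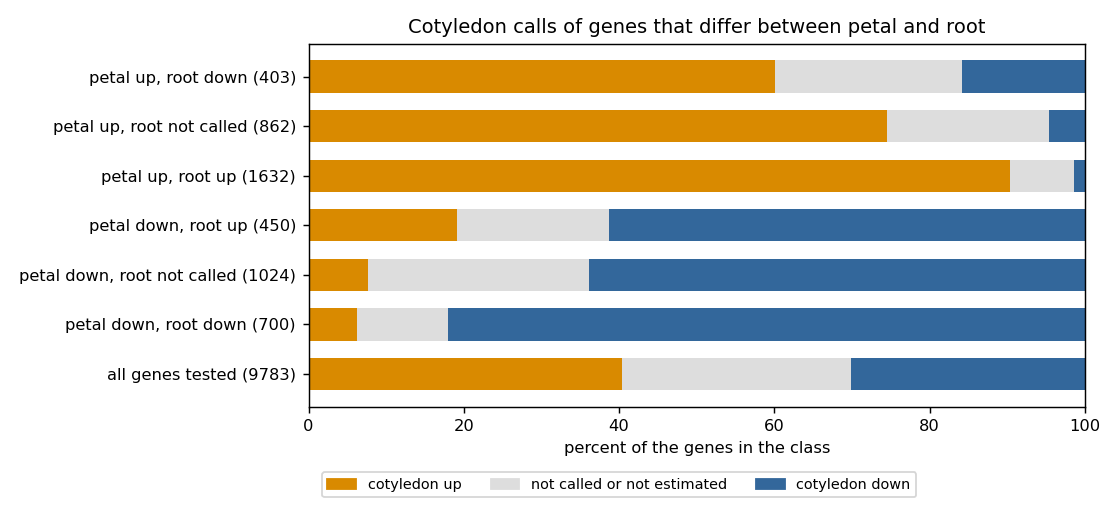
Share of genes (x axis, percent) called up, not called or called down in cotyledon callus against its explant, for 6 classes of genes with a called petal minus root difference and for all tested genes, with the number of genes in brackets. Genes up in petal and down in root were up in cotyledon in 60.05% of cases, and genes down in petal and up in root were down in cotyledon in 61.3%.

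Many genes of cell division, replication and chromatin assembly had higher responses in petal callus. Of 13 tested genes of cell division, 7 were higher and 1 lower in petal than in root, with a median difference of 0.87. Over all tested genes 33.2% were higher and 26.6% lower, with a median difference of 0.05. The list counts below are to be read beside these shares. For counts of rises and falls, the shares over all tested genes were 45% and 33.4% in petal, 39.5% and 23.1% in root. BUBR1 (AT2G33560), of the spindle checkpoint, had responses of 4.72, 4.14, 4.47 and 4.11 in petal, against 0.98, 1.20, 0.81 and 1.43 in root. Its response passed the test in both organs, and the difference was 3.26 ± 0.25 (adjusted p = 4.15e-06), 9.55-fold. Haspin (AT1G09450), a histone H3 kinase of mitosis, had 5.04, 4.27, 3.92 and 4.00 in petal, against 1.95, 1.76, 1.54 and 1.90 in root (2.52, adjusted p = 5.27e-05). BUB3.2 (AT1G49910), a further checkpoint gene, had 3.81, 3.29, 3.03 and 3.35 in petal, against 1.15, 0.97, 0.69 and 0.75 in root (2.48, adjusted p = 2.72e-06). The fourth gene by size, the cdc2-like kinase cdc2cAt (AT5G39420), did not pass at -1.96 (adjusted p = 0.12), and its root value of -6.11 on replicate 2 lay far from the other 3 root values of -0.62 to -0.43. The 1 gene lower in petal, named after its value was seen, was SIM (-0.69), an inhibitor of division that favours endoreplication, whose response was -3.38 in petal and -2.69 in root. The Aurora kinases AUR1 and AUR2, close paralogs whose probes may read both, did not pass (-0.49 and -0.76).

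All 3 tested replication genes were higher in petal and did not overlap between organs. Over all tested genes 33.2% were higher, 26.6% were lower and 50.4% did not overlap. POLA3 (AT5G41880), of the DNA polymerase alpha and primase complex, had responses of 4.43, 3.45, 3.26 and 3.06 in petal, against 1.65, 1.60, 1.30 and 1.37 in root (2.07, adjusted p = 5.34e-05). PRL (AT4G02060), the MCM7 subunit of the replicative helicase, had 3.71, 2.81, 3.54 and 2.63 in petal, against 0.93, 1.29, 1.05 and 1.14 in root (2.07, adjusted p = 6.91e-05). POLD3 (AT1G78650), a subunit of DNA polymerase delta, differed by 1.13 (petal 2.41, root 1.28). Both organs raised these genes, and petal did so by more. Of 13 tested histone genes, 8 were higher and 1 lower in petal. The histone H3.1 gene AT3G27360 had 4.55, 3.40, 4.14 and 3.31 in petal, against 1.17, 1.11, 1.09 and 1.04 in root (2.75, adjusted p = 1.27e-05). AT1G09200, which encodes the same H3.1 protein, differed by 2.13, the H2B gene HTB2 (AT5G22880) by 1.98 and the H4 gene HIS4 (AT2G28740) by 1.25. The H3.1 genes are near-identical, and their probes may read each other's transcripts. The 1 histone gene lower in petal, named after its value was seen, was the linker histone gene HON4 (-0.63). PGY1 (AT2G27530), the tested gene of the cytosolic ribosome, differed by 2.65, with petal values of 2.49 to 3.67 and root values of -0.42 to 1.01.

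The size of these differences depends on the scale of the arrays. With arrays scaled to the same spread, the medians fell to 0.29 for cell division (5 higher, 2 lower), 0.53 for replication (2 higher) and 0.06 for histones (3 higher, 2 lower), and Haspin, POLD3 and HIS4 lost their calls. HIS4 was also lost on the arrays with callus in Cy5 alone. In cotyledon callus BUBR1 (4.08), Haspin (3.90), BUB3.2 (3.33), AT3G27360 (3.83), AT1G09200 (2.57) and HIS4 (2.1) did not differ from petal past the threshold. POLA3 (2.78), PRL (2.41), POLD3 (1.44) and HTB2 (2.41) were lower in cotyledon than in petal.

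**Figure D4:**
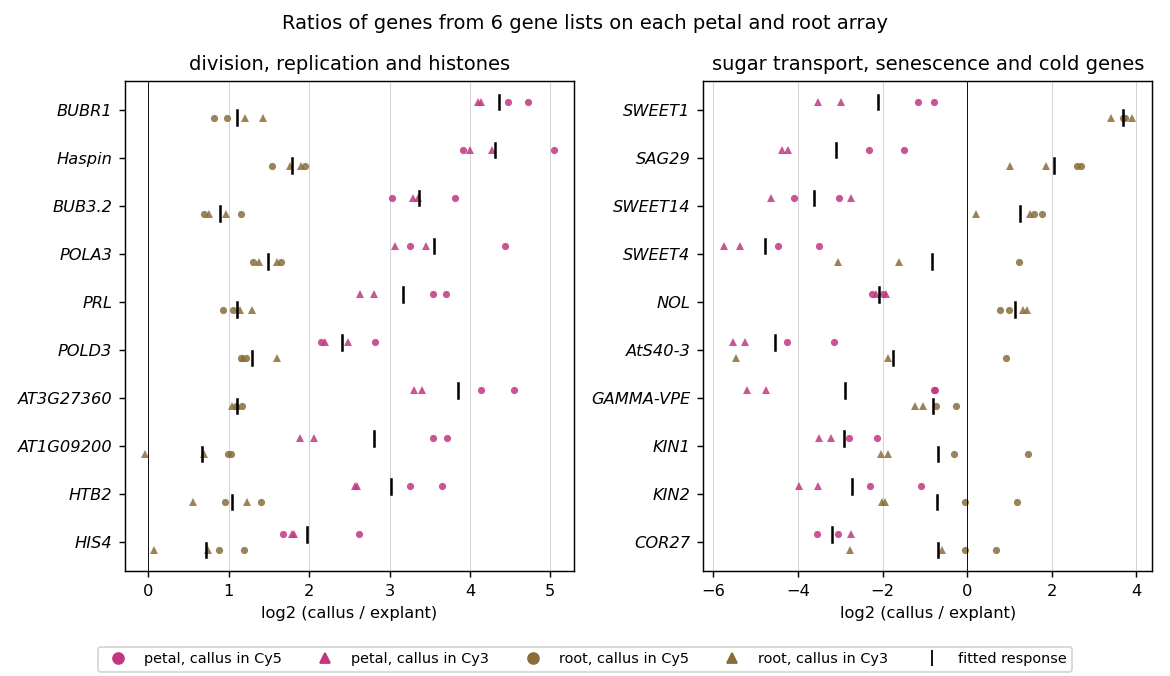
Log2 ratio of callus over explant (x axis) on each petal array (upper points of a gene) and root array (lower points), for 10 genes of division, replication and histones (left panel) and 10 genes of sugar transport, senescence and cold response (right panel), with symbols and bars as in the plot of the extreme genes. In the left panel all petal points lie right of all root points of the same gene. In the right panel petal points lie left, with overlap in AtS40-3, GAMMA-VPE, KIN2 and COR27.

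The list of root meristem and lateral root regulators did not move as 1 group. Of 7 tested, 2 were higher and 3 lower in petal. The list mixes genes of lateral root initiation with genes of other roles, so its counts do not decide whether the lateral root pathway differed. LBD16 (AT2G42430), which acts in the first steps of lateral root initiation downstream of auxin, had responses of 4.05, 2.89, 3.45 and 2.70 in petal, against 0.79, 0.53, -0.34 and 1.66 in root. All petal values lay above all root values, and the root response of 0.66 did not pass. In cotyledon callus LBD16 was at 3.47, and petal minus cotyledon was -0.20 (limma, adjusted p = 0.774). The difference was 2.61 ± 0.52 (adjusted p = 0.0015), and it was lost with arrays scaled to the same spread and on replicates 3 and 4 alone (highest adjusted p = 0.0642). Of the remaining genes, chosen after their values were seen, the AP2 factor gene BBM, known for inducing embryos when overexpressed, rose in both calli, to 3.67 in petal and 2.66 in root, and differed by 1.01 (adjusted p = 0.0212). CLE40, a peptide gene of the root tip, was at 3.03 in petal and 2.46 in root and did not differ beyond the spread (0.58, adjusted p = 0.334).

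The 3 lower genes did not share a direction in root. IDD16 (AT1G25250), a zinc finger factor gene of the INDETERMINATE DOMAIN family, had responses of -1.35, -1.24, -1.23 and -1.57 in petal, against 1.35, 2.17, 1.71 and 1.02 in root (-2.91, adjusted p = 8.25e-06). CR4 (AT3G59420), the receptor kinase ACR4 of root stem cells and formative divisions, had -0.98, -0.79, -0.75 and -0.57 in petal, against 1.49, 1.86, 1.21 and 1.73 in root (-2.34, adjusted p = 1.96e-06). Both were higher than the explant on every root array and lower on every petal array. UPB1 (AT2G47270), a bHLH repressor of peroxidase genes at the root transition zone, had -2.30, -3.79, -2.16 and -4.29 in petal, against -0.88, -0.94, -0.09 and -1.03 in root (-2.40, adjusted p = 0.000124).

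Most tested auxin genes rose in petal callus, and most rose in root callus. Of 12 tested, 9 rose in petal callus and 8 in root callus, with list medians of 1.66 in petal and 0.65 in root. The difference was called higher in petal for 5 and lower for 3, with a median of 0.50. Among all tested genes, 45% rose in petal and 39.5% in root. The difference was higher in 33.2% and lower in 26.6% of them, with a median of 0.05. Chosen after their values were seen, the early auxin genes GH3.3 (3.04 in petal, 2.71 in root), IAA30 (3.31 and 2.64), IAA31 (0.80 and 0.74) and IAA33 (2.02 and 1.85) did not differ past the threshold. These were the 4 uncalled genes of the 12. Of the 6 tested IAA genes, 2 were higher and 1 lower in petal. With full centring 6 of the 12 auxin genes were higher and 0 lower. IAA29 (AT4G32280), a repressor of auxin signalling, had responses of 2.87, 2.74, 2.54 and 2.19 in petal, against 0.53, 0.18, 0.85 and 0.63 in root. It had the largest difference of the list, 2.04 ± 0.40 (adjusted p = 0.00133), lost on replicates 3 and 4 alone. The other genes named by rule were PID2 (AT2G26700), a protein kinase gene related to the PINOID regulator of auxin transport, at 1.12, and the auxin synthesis genes YUC4 (AT5G11320) at 1.03 and YUC11 (AT1G21430) at -1.05. PID2 lost its call with scaled arrays and on the Cy3 arrays alone, YUC4 on the Cy5 arrays alone and with limits kept, and YUC11 with full centring. In the cytokinin list 2 of 7 genes could be tested. RR16 (AT2G40670), a type-A response regulator gene, had -3.15, -6.57, -2.30 and -6.19 in petal, against -0.80, -1.54, -1.34 and -1.25 in root (-3.32, adjusted p = 0.00419), with the Cy3 arrays near the limit. That call was lost with scaled arrays and on replicates 3 and 4 alone. EXO (AT4G08950), which brassinosteroid induces, was higher in petal by 2.74 (4.48 in petal, 1.74 in root) and EIN3, the ethylene response factor gene, was lower by 0.88 (-0.73 in petal, 0.15 in root). EXO lost its call with scaled arrays, and EIN3 on the Cy5 arrays alone and with full centring.

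Chloroplast genes had lower responses in petal with the ratios as deposited. Callus was lower than the explant in 14 of 15 tested photosynthesis genes in petal and in 13 in root, and 9 of the 15 were lower in petal than in root, with 1 higher and a median difference of -1.31. The median of the list was -2.81, -4.04, -2.34 and -4.21 on petal replicates 1 to 4, against -1.87, -1.93, -1.19 and -1.85 on root replicates 1 to 4. It was lower on the petal arrays with callus in Cy3 than on those with callus in Cy5. SBPASE (AT3G55800), a Calvin cycle enzyme, had responses of -3.32, -4.05, -2.95 and -3.88 in petal, against -0.91, -0.99, -0.53 and -1.17 in root (-2.65, adjusted p = 3.65e-06). PSAN (AT5G64040), of photosystem I, differed by -2.61 (petal -4.60, root -1.99). Of the antenna genes, LHCB4.2 differed by -2.33 and LHCB4.3 by -2.11, whereas LHB1B2 (AT2G34420), which has near-identical paralogs, was at -3.52 in petal and -3.60 in root (difference 0.08, adjusted p = 0.919). The 1 gene higher in petal, named after its value was seen, was ATPC2 (0.54), a subunit of the chloroplast ATP synthase.

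In chlorophyll synthesis, 6 of 8 tested genes were lower in petal and none was higher. CHLI2 (AT5G45930), a magnesium chelatase subunit, had responses of -3.64, -4.09, -2.99 and -3.12 in petal, against 0.25, -0.02, -0.04 and 0.06 in root (-3.52, adjusted p = 3.46e-06). Its root response did not pass the test. HEME2, a uroporphyrinogen decarboxylase gene, differed by -1.59, PORB, a protochlorophyllide reductase gene, by -1.14 and CHLM, a methyltransferase gene, by -1.03. Of the 8 chlorophyll genes, 2 were lower with full centring (median -0.42), 2 with scaled arrays (median -0.21) and 3 on the Cy5 arrays. The direction of the photosynthesis list is not stable. With arrays scaled to the same spread its median difference was 0.35, with 2 genes higher and 2 lower, and PSAN and LHCB4.2 lost their calls (-0.40 and -0.48), while SBPASE, LHCB4.3, CHLI2 and HEME2 kept theirs. PORB, CHLM and the photorespiration gene HPR (-1.09, adjusted p = 0.0423) changed sign under that scaling, and CHLM and HPR lost their calls under 13 and 15 of 24 alternatives.

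Sugar transport parted the organs within 1 family. Of 20 tested genes of sugar transport and starch, 3 were higher and 10 lower in petal, with a median difference of -0.87. Among the 9 tested SWEET genes under that name, 6 were lower and 1 higher, with a median of -2.59. SWEET4 (AT3G28007) had responses of -4.48, -5.76, -3.51 and -5.36 in petal, against -3.04, 1.23 and -1.61 on root replicates 2 to 4, with root replicate 1 at a limit. The difference was -3.95 (adjusted p = 0.000542), the fourth largest of the list behind SWEET1, SAG29 and SWEET14. SWEET13 at -3.30, SWEET2 at -2.59 and SWEET10 at -2.26 were also lower in petal, and SWEET17 (AT4G15920), a fructose transporter of the vacuole, was higher by 2.41 (-0.52 in petal, -2.94 in root). Root callus rose in SWEET1 and SWEET14 of these 9, and petal callus rose in none of them and fell in 7. The other genes higher in petal were the cell wall invertase gene cwINV6 (3.95) and the disproportionating enzyme gene DPE1 (0.83). APL3 (AT4G39210), a large subunit of ADP-glucose pyrophosphorylase, was at -0.62 in petal and 1.98 in root (-2.60, adjusted p = 1.01e-06). Its relative APL4 rose in both, to 3.42 in petal and 3.03 in root, with no called difference. Of these genes only SWEET1, SAG29, SWEET14 and SWEET4 came from the naming rule, and the rest were chosen from the list after their values were seen. With full centring 5 of the 20 genes of the list were higher and 8 lower, with a median of -0.32.

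Most senescence and recycling genes were lower in petal callus with the ratios as deposited. Of 15 tested, 12 were lower and none was higher than in root, and petal callus was lower than its explant in 14. The median of the list was -1.74, -2.46, -0.78 and -3.22 on petal replicates 1 to 4, against -0.64, -0.58, -0.29 and -0.69 on root replicates 1 to 4. NOL (AT5G04900), a chlorophyll b reductase of chlorophyll breakdown, had responses of -2.0, -1.92, -2.24 and -2.16 in petal, against 1.00, 1.33, 0.77 and 1.42 in root. The organs did not overlap and had opposite signs, with a difference of -3.21 ± 0.15 and an adjusted p of 3.77e-07. Among genes of autophagy, ATG8H at -1.80, ATG8B at -1.46, ATG8D at -1.18, APG8H at -1.07, ATG3 at -0.74 and ATG8G at -0.52 were lower in petal, and ATG8E and ATG8F (-0.23 each) and APG8A (-1.46, adjusted p = 0.158) did not pass. The ATG8 genes are similar in sequence, so a probe may read relatives. GAMMA-VPE (AT4G32940), a vacuolar processing enzyme gene, followed the dye in petal, at -0.77 and -0.78 on the Cy5 arrays (replicates 1 and 3) but -4.76 and -5.21 on the Cy3 arrays, against -1.22 to -0.26 in root. Its difference of -2.07 (adjusted p = 0.015) was lost on the Cy5 arrays alone and under 5 other alternatives, among them the replicate block (adjusted p = 0.0755). AtS40-3, a senescence gene, at -2.80 was lost under 8 of its 22 alternatives, among them the replicate block (adjusted p = 0.0677) and leaving out root replicate 3, root replicate 4 or petal replicate 1. The counts of the list varied with the processing. On the Cy5 arrays 4 of 14 were lower and 2 higher (median -0.86), with full centring 7 of 15 were lower (median -0.96), and with scaled arrays 6 were lower (median -0.44).

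Of 14 tested stress and LEA genes, 6 were lower and 1 higher in petal, beside 26.6% lower and 33.2% higher over all tested genes. The cold-induced genes KIN1 (AT5G15960) and KIN2 (AT5G15970) are close paralogs. KIN1 had responses of -2.79, -3.21, -2.13 and -3.49 in petal, against 1.45, -2.04, -0.31 and -1.87 in root. The root values were spread over more than 3 log2 units and did not pass as a response. The difference was -2.21 for KIN1 (adjusted p = 0.00188), -2.02 for KIN2 and -2.51 for COR27, and all 3 calls were lost with scaled arrays. The 1 gene higher in petal was AT2G44060, annotated as LEA26, with 2.97, 1.95, 2.82 and 1.48 in petal, against 0.06, 0.16, 0.26 and -1.02 in root (2.44, adjusted p = 2.27e-05). With full centring 4 of the 14 genes of the list were lower and 3 higher.

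Markers of pollen and anther were followed because a petal explant can carry pollen. Of 9 pollen genes on the array 5 could be tested, and all 5 were lower in petal, where callus was lower than the explant in each. The median of the list was -4.36, -4.61, -3.09 and -1.80 on petal replicates 1 to 4, against 1.76, -0.66, 0.84 and 0.94 on root replicates 1 to 4. RALFL25 (AT3G25165), a peptide gene of pollen tubes, had responses of -4.62, -6.42, -3.17 and -5.83 in petal, against -2.26, 0.84 and 0.40 on root replicates 2 to 4 (-4.98, adjusted p = 0.000227). AGL66 (AT1G77980), AGL104 (AT1G22130) and AGL65 (AT1G18750) encode MADS factors that act together in pollen. AGL66 had -3.53, -3.0, -3.75 and -0.96 in petal, against 2.35, 1.31, 0.80 and 0.94 in root (-4.16, adjusted p = 0.000119), and AGL65 differed by -1.73 (petal -0.48, root 1.25). AGL104 at -3.47 rests on 3 arrays of both organs and was not called (adjusted p = 0.0518) once root replicate 3 was left out. CSLA01 (-4.21, adjusted p = 0.0317) lost its call under 9 of its alternatives. The rise of AGL66 and AGL65 in root callus passed the test. In cotyledon callus AGL104 (-3.27), RALFL25 (-1.85) and AGL65 (-1.19) were also lower than the explant past the threshold. The cotyledon responses of AGL66 (0.82) and CSLA01 (0.55) did not pass. A fall of these genes was thus not particular to petal callus. Of 3 tested tapetum and anther genes, EMS1 (AT5G07280), a receptor kinase gene that specifies the tapetum, differed by -3.04 on 3 arrays each, SPL by -0.91, lost under 12 of 24 alternatives, and ATA20 by -0.09 (not called). The part of pollen or anther tissue in the differences of other genes was not tested.

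Of 27 tested genes of leaf and floral identity, 8 were higher and 9 lower in petal, beside 33.2% higher and 26.6% lower over all tested genes, and 39 of 66 on the array were not tested. On the Cy5 arrays 2 were higher and 8 lower of 22. AGL42 (AT5G62165), a MADS gene of flowering, had responses of 1.25, 1.62, 1.04 and 1.62 in petal, against -1.72, -2.61, -1.93 and -1.67 in root. The organs were opposite in direction and did not overlap (3.36, adjusted p = 1.1e-05). It lost its call only with values at a limit kept (adjusted p = 0.11). Of the genes of organ polarity, YAB3 (AT4G00180), which specifies the lower side of lateral organs, had -3.30, -4.45, -2.60 and -2.34 in petal, against 1.67, -2.21, 0.01 and 0.09 in root (-3.06, adjusted p = 0.0024). CYP78A9, a cytochrome P450 gene of floral organ growth, differed by -2.42 (petal -2.97, root -0.54). Both were lost on the Cy3 arrays alone, where the adjusted p was 0.112 for YAB3 and 0.0933 for CYP78A9. PHV (AT1G30490), which encodes a homeodomain factor of the upper side, rose in both organs, with 1.60, 1.49, 1.52 and 1.39 in petal, against 1.96, 2.11, 2.00 and 2.08 in root, and differed by -0.54 (adjusted p = 0.00716). This difference was lost with full centring, on the Cy5 arrays alone and on replicates 3 and 4 alone.

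**Figure D5:**
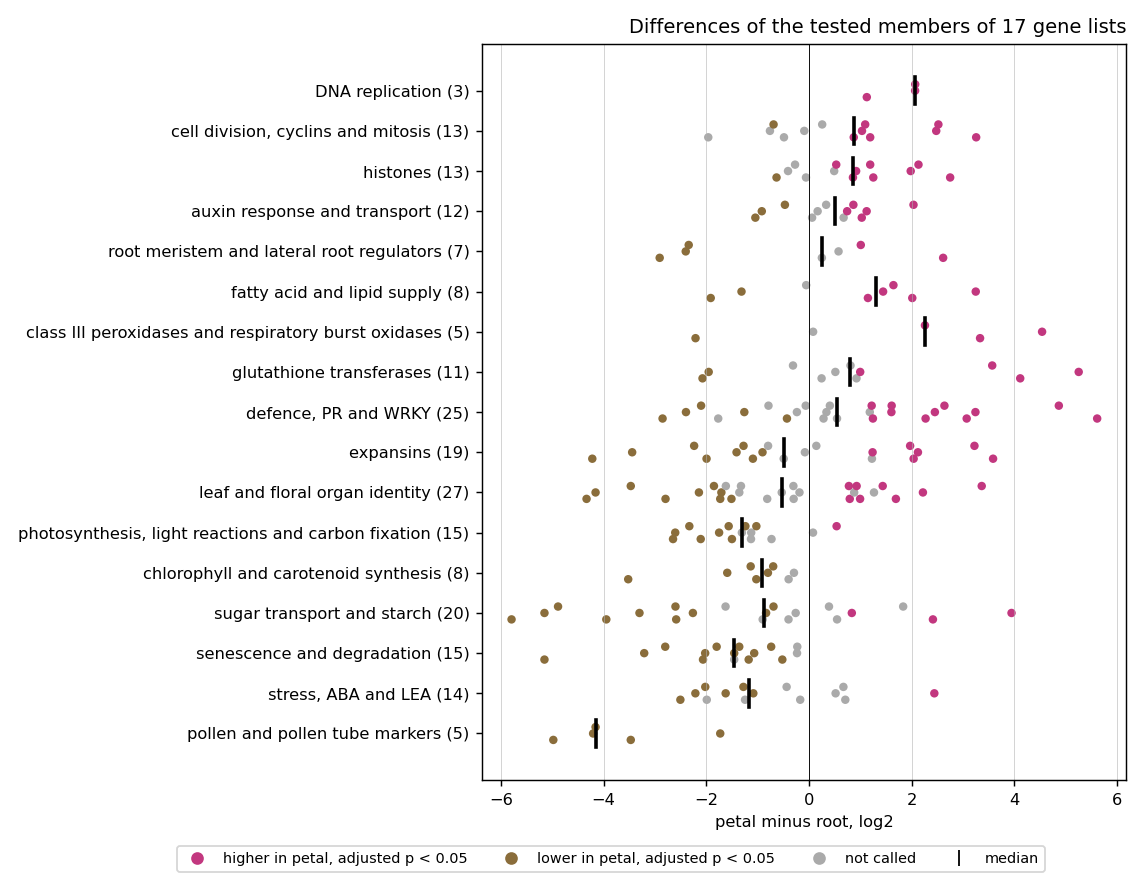
Petal minus root difference (x axis, log2) of each tested member of 17 gene lists, with the number tested in brackets, colours for the call at an adjusted p under 0.05 and a black bar for the list's median. Members of replication lie right of 0, members of senescence and pollen left of 0, and expansins and floral identity genes on both sides.

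Wall-loosening genes differed in both directions. Of 19 tested expansins, 6 were higher and 8 lower in petal (median -0.49), and of 11 xyloglucan enzyme genes 4 were higher and 4 lower. Over all tested genes 33.2% were higher and 26.6% lower. The balance of the expansins turned with full centring, to 7 higher and 3 lower, and on the Cy3 arrays, to 8 higher and 5 lower of 18 (median 0.43). EXPB3 (AT4G28250) had responses of -0.27, 0.17, 2.32 and -0.42 in petal, against -3.17, -3.16, -2.67 and -3.55 in root (3.59, adjusted p = 0.000156), and only the root response passed the test. EXPA15 (AT2G03090) had 1.29, 0.92, 1.61 and 0.42 in petal, against -2.64, -1.58, -1.73 and -2.71 in root (3.22, adjusted p = 3.53e-05). EXPA8 (AT2G40610) had -3.80, -5.80, -3.11 and -5.38 in petal, against -1.55, -0.11, -0.75 and -1.89 in root (-3.45), a call lost with scaled arrays. The expansins thus parted by member and not by family. EXPA7 (AT1G12560), an expansin of root hairs, was higher in petal by 1.97, with a petal response of 1.72 and a root response of -0.25 that did not pass, while EXPA18, another expansin of root hairs, varied from -1.34 to 2.20 in petal and from -0.31 to 1.90 in root and did not differ past the threshold. TRY (AT5G53200), a repressor of trichome formation, differed by -2.06 (petal -3.61, root -1.55), a call lost with scaled arrays.

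Among xyloglucan genes, CSLC12 (AT4G07960), of the family that makes the glucan backbone, had responses of -2.07, -1.61 and -2.57 on petal replicates 1 to 3, against 1.86, 1.90, 1.87 and 1.35 in root, with petal replicate 4 at a limit. It was opposite in direction between the organs, at -3.82 (adjusted p = 4.73e-06). XTH33 (AT1G10550) differed by -3.40 (petal -2.63, root 0.77). XTH20 (AT5G48070) had 5.21, 4.06, 4.40 and 3.68 in petal, against 1.92, 1.44, -0.13 and 1.29 in root (3.21, adjusted p = 0.000581), and XTH19, its near relative, differed by 2.29 (petal 2.42, root 0.13). Of 24 other wall polysaccharide genes, 9 were higher and 9 lower, beside 33.2% higher and 26.6% lower over all tested genes. ATPMEPCRB, a pectin methylesterase gene, had 2.14, 2.32, 1.73 and 2.39 in petal, against -1.0, -1.18, -1.81 and -0.88 in root (3.36, adjusted p = 1.01e-06).

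Of 25 tested genes in the defence list, 11 were higher and 5 lower in petal (median 0.55), beside 33.2% higher and 26.6% lower over all tested genes. The list takes in beta-glucosidases, and of the 12 BGLU genes tested 7 were higher and 2 lower. The count is thus not one of defence genes alone. Besides OSM34, the genes named by rule were BGLU21, BGLU46 and BGLU22 of the beta-glucosidase family. BGLU21 (AT1G66270) had responses of 3.49, 2.93 and 2.08 on petal replicates 2 to 4, with petal replicate 1 at a limit, against -0.61, -2.54, -0.44 and -2.91 in root (4.87, adjusted p = 0.000489). BGLU22 (AT1G66280) had 5.12, 4.02, 4.23 and 2.67 in petal, against 0.52, 0.59, 0.67 and 1.98 in root (3.07, adjusted p = 0.00063), a call lost on replicates 3 and 4 alone. These 2 neighbours are near-identical, so their probes may read both, although their root responses had opposite signs. BGLU46 (AT1G61820), which acts on lignin precursor glucosides, was at 0.39 in petal and -2.85 in root (3.24), with root values of -2.91 to -2.79.

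Peroxidases and glutathione transferases also gave large differences of both signs. AT2G41480, annotated as peroxidase 25, had responses of 0.86, 0.98, 1.46 and 0.94 in petal, against -2.84, -4.28, -2.88 and -3.92 in root (4.54, adjusted p = 2.13e-06). Prx37 had 4.45, 3.27, 3.61 and 2.92 in petal, against -0.13, 0.62, 0.24 and 0.19 in root (3.33, adjusted p = 7.14e-05). PRXR1 was higher by 2.26 and PRX52, a peroxidase of lignin formation, lower by 2.21, and AT5G66390 did not pass at 0.08. Of 11 glutathione transferases 4 were higher and 2 lower in petal, near the 33.2% higher and 26.6% lower over all tested genes. GSTF3 (AT2G02930) had 3.77, 3.18, 3.01 and 2.87 in petal, against -1.01, -1.28, -1.36 and 0.03 in root (4.11, adjusted p = 9.04e-05). GSTU25 (AT1G17180) differed by 3.57 (petal 3.76, root 0.19) and GSTL3 (AT5G02790) by -2.08 (petal -2.25, root -0.18). No glutathione transferase of the 11 rose in root callus and 8 fell there, and in petal callus 3 rose and 6 fell. The shares over all tested genes were 45% up and 33.4% down in petal, and 39.5% up and 23.1% down in root.

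In lipid supply, 5 of 8 tested genes were higher and 2 lower in petal. ICL (AT3G21720), isocitrate lyase of the glyoxylate cycle, had responses of 3.68, 2.31, 3.68 and 2.27 in petal, against -0.81, 0.47, -0.74 and 0.04 in root (3.25, adjusted p = 9.49e-05). FaTA (AT3G25110), an acyl-ACP thioesterase that ends fatty acid synthesis, had 1.83, 1.76, 1.58 and 1.46 in petal, against -0.53, -0.17, -0.14 and -0.57 in root (2.01, adjusted p = 3.61e-06). ATP-citrate lyase, which supplies acetyl-CoA in the cytosol, differed by 1.64 for ACLA-2, by 1.44 for ACLA-1 and by 1.15 for ACLB-1, and not for ACLA-3 (-0.06, adjusted p = 0.758). FATB, a thioesterase with another chain length preference, was lower in petal (-1.92), a call lost on the Cy5 arrays alone and on replicates 3 and 4 alone. Petal and root values did not overlap in 7 of the 8 genes, against 50.4% of all tested genes. With scaled arrays 6 were higher and 1 lower.

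Secondary metabolism was mixed. Of 8 glucosinolate genes, 3 were higher and 3 lower in petal, beside 33.2% higher and 26.6% lower over all tested genes. Behind BCAT4, the thiohydroximate glucosyltransferase gene UGT74B1 (AT1G24100) differed by 1.93 (petal 1.74, root -0.19) and the transporter gene GTR1 (AT3G47960) by -2.33 (petal -2.59, root -0.26). GTR2 at -1.59 was lost under 10 of its alternatives. Of 8 flavonoid and phenylpropanoid genes 3 were higher and 2 lower. CCR2 (AT1G80820), a cinnamoyl-CoA reductase gene, had responses of 2.18, 1.92, 1.84 and 1.11 in petal, against -0.50, -1.21, -0.69 and -1.61 in root (2.77, adjusted p = 1.16e-05). UGT80B1, a sterol glucosyltransferase gene, differed by -1.75 (petal -1.47, root 0.28). CHIL at 2.31 (adjusted p = 0.0214) was lost without petal replicate 1, root replicate 2 or root replicate 3, and UGT78D1 did not pass at -2.41 (adjusted p = 0.0565).

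Of 7 jasmonate genes 2 were higher and 2 lower in petal, near the 33.2% higher and 26.6% lower over all tested genes. MYC4 (AT4G17880), a transcription factor of jasmonate signalling, had responses of 1.18, 1.59, 0.83 and 1.36 in petal, against -0.43, 0.49, 0.20 and 0.49 in root (1.06, adjusted p = 0.000583). OPCL1 (AT1G20510), of jasmonate synthesis, differed by 1.49 (adjusted p = 0.0139), and the defensin gene PDF1.2b by -2.39 (adjusted p = 0.0138), whose close copies PDF1.2, PDF1.2c and PDF1.3 were higher than the explant in both calli and did not differ past the threshold. OPCL1 was lost on the arrays of each dye alone and PDF1.2b on the Cy3 arrays alone.

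Among 12 nutrient transport genes 4 were higher and 5 lower in petal, beside 33.2% higher and 26.6% lower over all tested genes. NRAMP5 (AT4G18790), of a metal transporter family, had responses of -4.05, -6.51, -2.47 and -3.0 in petal, against -0.14, -1.97, -0.29 and -0.21 in root (-3.36, adjusted p = 0.00251), a call lost on the Cy3 arrays alone. AT1G68570, annotated as NPF3.1, had -3.82, -5.14, -1.76 and -4.76 in petal, against -0.85, -0.50, -0.26 and -0.84 in root (-3.26, adjusted p = 0.000441), and AT1G59740, annotated as NPF4.3, differed by 2.84 (petal 2.90, root 0.05). NAXT1, a nitrate efflux gene, at 2.73 (adjusted p = 0.0472), was lost without any one of 6 arrays. Of 14 organelle RNA genes, 3 were higher and 6 lower in petal (median -0.58), to be read against the same shares. With full centring 3 were higher and 2 lower (median -0.09). The pentatricopeptide repeat genes PPR596 (AT1G80270) and PPR336 (AT1G61870), both of mitochondria, rose in both calli and by more in petal. PPR596 had 3.82, 3.04, 3.34 and 2.99 in petal, against 1.08, 1.21, 0.98 and 1.01 in root (2.23, adjusted p = 3.33e-06), and PPR336 differed by 1.81 (petal 3.11, root 1.30). NdhS, of the chloroplast NDH complex, was lower by 1.43 (petal -3.56, root -2.13), and under scaled arrays its sign turned.

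Genes were untested where limits left too few values. Of the 3726 untested genes, 938 had fewer than 3 values in petal alone, 335 in root alone and 2453 in both. In 2697 of them at least 1 root array stood at the upper limit and at least 1 at the lower limit. Over all probes, upper limits numbered 5571 and 1834 on the root arrays with callus in Cy5, against 3 and 1 with callus in Cy3. Lower limits numbered 10 and 34 on these Cy5 arrays, against 5357 and 1844 on the Cy3 arrays. In 94 untested genes, petal stood at the lower limit on 3 or 4 arrays while root was measured, and 3 of these were at the limit on all 4 petal arrays. The symbols among the 94 were the egg cell gene EC1.1 (mean root response 0.86), the xylan gene IRX15 (-0.46), SBT4.12 (-3.71), TBL19 (-1.69), TBL21 (-1.02), TBL30 (-2.01) and TET12 (-0.24), all with 1 measured petal array.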

How the data were processed

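Two-colour arrays compared callus RNA with RNA of its day-0 explant, amplified with T7 polymerase per the labels' protocols. The authors deposited log2 ratios, 1 value per probe and array, with 24938 of 26540 probes measured. No source used here gives their normalization or image processing. No intensity was analysed, and the number of arrays limits the precision. Probe names came from the platform annotation: 13960 probes had 1 gene, none had several and 12580 had none. Of the named probes 13912 matched RefSeq (TAIR10.1) and 48 did not. Values of about 100-fold or more, among them 578 at -33.22, were left out as limits, and probes of a gene were averaged.

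The log2 ratios of all 12 arrays were fitted in limma 3.58.1 (R 4.3.3) with terms for organ and dye, with Benjamini-Hochberg adjustment over 9783 genes. The fit was tested on simulated data in which few genes were changed, with 102 of 9783 called. Recovery in petal minus root was 8.96% of genes changed by 0.5, 50.7% of those changed by 1 and 84.8% of those changed by 2. The data gave 5851 calls, and the adjusted threshold depends on the number of calls. These shares therefore do not describe the fit of the data. Nothing says that replicates came from separate cultures, so p-values measure the spread between samples, which may be technical. Genes were named by rule: the 10 highest and 10 lowest called differences without overlap among genes with a symbol and a value on all 4 arrays of both organs, 6 opposite genes a direction, and the 4 largest differences of each list (all members of lists with 6 or fewer tested). Members and lists were chosen with earlier results of these data known. Alternatives changed the arrays, dye term, centring, scale, limits and filters. Promoters were not analysed here.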

Additional observations from a re-analysis of the deposited data

Results flagged for a closer look

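GAMMA-VPE is listed because its petal minus root difference depended on the dye: the difference with callus in Cy5 minus that with callus in Cy3 was 3.56 (limma interaction, adjusted p = 0.0303).

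On all measured arrays of both organs, these named genes had opposite signs in petal and root, and limma called each difference. The root response itself did not pass in OPCL1, TBL45, EMS1, PRX52, EIN3 and IRX15-L, and the petal response did not pass in PDF1.2b. Petal lay above root in JAL22 (7.04), GRI (6.06), UGT72E1 (5.91), BCAT4 (5.63), OSM34 (5.61), GSTU22 (5.25), JAL31 (5.19), JAL34 (5.03), BGLU21 (4.87), MSRB9 (4.71), PUB22 (4.67), AT2G41480 (4.54), TRI (4.42), AGL42 (3.36), ATPMEPCRB (3.36), EXPA15 (3.22), CCR2 (2.77), FaTA (2.01) and OPCL1 (1.49). Petal lay below root in SWEET1 (-5.80), SAG29 (-5.15), SWEET14 (-4.89), MGL (-4.25), AGL66 (-4.16), PPDK (-4.12), CSLC12 (-3.82), TBL45 (-3.82), XTH33 (-3.40), NOL (-3.21), EMS1 (-3.04), IDD16 (-2.91), PDF1.2b (-2.39), CR4 (-2.34), PRX52 (-2.21), UGT80B1 (-1.75), EIN3 (-0.88) and IRX15-L (-0.55).

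Among 243 groups of 4 arrays of the named genes, 12 (4.94%) held an array whose gap to the nearest other exceeded Dixon's critical value as a share of the group's range, against about 1 in 20 by chance. Petal replicate 1 stood apart in HIS4 at 2.62, with the other petal arrays at 1.68 to 1.81. Root replicate 1 stood apart in RH20 at 0.44, with the others at 0.08 to 0.13. Root replicate 2 did so in cdc2cAt at -6.11 (others -0.62 to -0.43), RR22 at -2.15 (others -0.07 to 0.34), NRAMP5 at -1.97 (others -0.29 to -0.14) and POLD3 at 1.59 (others 1.15 to 1.22). Root replicate 3 did so in MGL at 1.89 (others 0.93 to 1.02) and UPB1 at -0.09 (others -1.03 to -0.88). Root replicate 4 did so in BGLU22 at 1.98 (others 0.52 to 0.67), CSLC12 at 1.35 (others 1.86 to 1.90), HEME2 at -0.50 (others -0.30 to -0.29) and AT2G44060 at -1.02 (others 0.06 to 0.26).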

How the results depend on the processing

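Called genes ranged from 3955 (callus in Cy5 only) to 6007 (2 or more values an organ), against 5851. Genes lower in petal numbered 1725 on the Cy5 arrays, 1710 on the Cy3 arrays and 1146 with centring on all values, against 2602. Genes up in petal and down in root numbered 219 on the Cy5 arrays, against 403. Genes down in petal and up in root numbered 134 on the Cy5 and 258 on the Cy3 arrays, 299 with centring on tested probes, 116 with centring on all values and 287 on replicates 3 and 4, an alternative chosen after seeing the data, against 450. Leaving out 1 array gave 5379 to 5775 called genes, 3021 to 3224 higher, 2358 to 2598 lower, and 345 to 409 and 341 to 459 opposite. Of 129 named genes 115 were called, 72 of them under every alternative that gave a value, and scaling ended 26 calls. With the replicate block in place of the dye, 5238 genes were called (2939 higher, 2299 lower) and 362 and 305 were opposite. The block ended the calls of SHN2, AtS40-3 and GAMMA-VPE among named genes. Deviations from organ means of same-numbered arrays correlated at -0.03, 0.25, 0.30 and 0.27 for replicates 1 to 4. Petal replicates 2, 3 and 4 correlated best with their own number and petal replicate 1 did not, so the numbers, which no label ties to a shared source, were not taken as pairs.

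Signs turned as follows, and the cause was not tested. Under scaling, differences were 0.46 for PORB, 0.39 for CHLM, 0.56 for HPR, -0.12 for RH39, 0.18 for SPL, 0.32 for GTR2, 0.60 for NdhS, -0.22 for EXPA18, 0.58 for GI, 0.17 for RR22 and 0.0755 for TCP15. With centring on all values they were 0.37 for AT1G29550, 0.40 for ATA20, 0.45 for GI, 0.34 for RR22 and 0.15 for TCP15. On the Cy5 arrays AT1G29550 had 0.0311 and EXPA18 -1.56. On the Cy3 arrays AT5G66390 had -0.45, GI 1.06 and RR22 0.26. PIF7 had -1.11 with limits kept, and GI 0.0338 on replicates 3 and 4. Without 1 array, AT5G66390 ranged from -0.18 to 0.39, ATA20 from -0.36 to 0.16, EXPA18 from -0.43 to 0.93, GI from -0.39 to 0.33 and RR22 from -0.72 to 0.21.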

Other observations

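Gene families were also counted by symbol, chosen after the data were seen. Among 33 tested UGT glycosyltransferases, 11 were higher and 8 lower in petal than in root at an adjusted p under 0.05 in limma, and the differences ran from -5.41 for UGT85A3 to 5.91 for UGT72E1. Of 12 BGLU beta-glucosidases, 7 were higher and 2 lower, with a median difference of 1.75. All 6 tested MED genes of the Mediator complex missed the threshold, with differences of -0.29 to 0.22. Over all tested genes 33.2% were higher and 26.6% lower.

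Single members of trafficking and peptide families had opposite responses in the organs. VPS2.2 (AT5G44560), of the endosomal sorting machinery, had responses of 3.12, 2.68, 2.71 and 2.52 in petal, against -1.54, -1.80, -1.28 and -1.56 in root, and differed by 4.30 (adjusted p = 3.6e-07 in limma). No petal value came near a root value, while of the other 8 tested VPS genes 4 were lower in petal. VPS9B (AT5G09320) had the lowest difference of the 9, -2.24, with petal values of -1.88 to -1.12 and root values of 0.29 to 1.25. RALFL27 (AT3G29780), of the family of RALF signalling peptides, had 0.96, 1.49, 1.01 and 1.37 in petal, against -2.51, -3.25, -2.05 and -3.31 in root (3.99, adjusted p = 3.38e-06). The subtilase gene ATSBT5.2 (AT1G20160) had 0.54, 1.62, 0.60 and 0.81 in petal, against -3.46, -3.30, -2.17 and -3.83 in root (4.08, adjusted p = 1.44e-05).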
